A study of Homo sapiens with 52 samples.

Results

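Translational efficiency (TE), the ribosome footprint level of a transcript relative to its RNA level, was compared between MCTS1 knockout (KO) and wild type cells of HEK293T, a line derived from human embryonic kidney. The TE change was the log2 Ribo-seq change minus the log2 RNA-seq change in 1 model over 12 libraries. The transcripts described here are those with a mean count of at least 50 over the 6 libraries of each assay, which were 85162 of the 226882 transcript identifiers of the series and had 84257 distinct count profiles. All 85162 passed the filter on low counts, and p-values were adjusted over all 108757 transcripts tested. In each assay the transcript nearest to the limit inside had a mean count of 50 and the nearest outside 49.8, and 4415 transcripts lay within 5 counts of it in Ribo-seq against 281 in RNA-seq.

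The series profiled translation after loss of eIF2D, MCTS1 or DENR. RNA-seq measured RNA levels, Ribo-seq measured the RNA fragments that ribosomes, held in place with cycloheximide, protect from RNase I, and TCP-seq measured fragments protected by ribosomal complexes. The groups compared were MCTS1 KO #1, MCTS1 KO #2 and wild type, with 2 libraries each in Ribo-seq and in RNA-seq. The KO lines are called clones here, since the sources used here do not give how they were made or whether each grew from a single cell, and both are labelled as knockouts of the same gene in the same parent line. Beside them stand readouts that the comparison did not use: Ribo-seq and RNA-seq of cells with siDENR #1, siDENR #2 or control siRNA, and TCP-seq of both KO clones and of wild type. Since no label states that replicates are separate cultures, the p-values may reflect technical spread between libraries only.

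MCTS1 and DENR form a complex that binds the small ribosomal subunit. The complex is known for removing the last tRNA and the subunit from the mRNA after termination, and for reinitiation of translation downstream of short upstream open reading frames. A transcript's TE can move because its footprints change at a steady RNA level or because its RNA changes without its footprints, and these cases are kept apart below. The files give Ensembl transcript identifiers that no table used here pairs with genes. The level of MCTS1 in the KO libraries, the markers of HEK293T cells, gene lists and sequences were therefore not analysed here, and transcripts are named by identifier.

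The libraries of clone #1 were the deepest. Ribo-seq totals were 148159238 to 193940882 counts for clone #1, 28668241 to 29624164 for clone #2 and 25785993 to 53386368 for wild type. RNA-seq totals were 150951436 to 301214608 for clone #1 and 79851240 to 89789500 for the other libraries. Replicates differed most in wild type Ribo-seq. The scaled median absolute deviation of the log2 difference between 2 replicates was 0.15 in clone #1, 0.22 in clone #2 and 0.29 in wild type for Ribo-seq. For RNA-seq it was 0.10 in clone #1, 0.12 in clone #2 and 0.13 in wild type.

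Few transcripts were called for TE in the mean of both clones, fewer than in clone #1 alone or between the clones (given below). In the mean of both clones against wild type, 312 transcripts had higher and 469 had lower TE (0.366% and 0.551% of the 85162) by the quasi-likelihood test of edgeR with Benjamini-Hochberg adjustment. The same rule called 0.336% higher and 0.536% lower among all transcripts tested. The median TE change over the 85162 transcripts was -0.01, with a scaled median absolute deviation of 0.19 on the log2 scale. Changes within 1 assay were called far more often. Ribo-seq levels were higher for 5427 and lower for 6868 of the 85162 transcripts, where the background over all tested was 5.24% and 6.98%. RNA-seq levels were higher for 8254 and lower for 9716, where the background was 8.48% and 10.3%. Of the 781 transcripts called for TE, 248 changed by at least 2-fold. Transcripts that overlap share reads, and the 781 fell into 588 groups by shared read profiles.

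The calls depended on single libraries, wild type ones above all. With 1 library left out at a time, the number called ran between 329 (without wild type RNA-seq replicate 2) and 4468 (without wild type Ribo-seq replicate 2), and 251 of the 781 were called in the same direction in all 12 fits. Wild type RNA-seq replicate 1 gave 352 when left out, and the clone #2 libraries gave 457 to 527. RNA-seq calls among the 85162 were 9015 without wild type RNA-seq replicate 1 and 7126 without replicate 2, against 17970 with all libraries. In these fits the lone library of a group is assumed to vary like the other groups.

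The 781 calls were sorted by where the change lay. A call was counted as moved by Ribo-seq when at least 66.7% of its TE change lay in Ribo-seq, as moved by RNA-seq when at most 33.3% did, and as moved by both assays otherwise. By this rule 206 were moved by Ribo-seq, 382 by RNA-seq and 193 by both assays. When the sorting used the calls within each assay instead, 236 were called in Ribo-seq alone, 443 in RNA-seq alone, 101 in both assays and 1 in neither. Those moved by Ribo-seq numbered 62 and 72 without each wild type RNA-seq library, 97 to 145 without each clone #2 library, 334 without wild type Ribo-seq replicate 1 and 3154 without wild type Ribo-seq replicate 2. Those moved by RNA-seq numbered 203 and 229 without each wild type RNA-seq library, and those moved by both assays 54 and 61 without the same libraries, 88 to 104 without each clone #2 library and 773 without wild type Ribo-seq replicate 2.

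**Figure D1:**
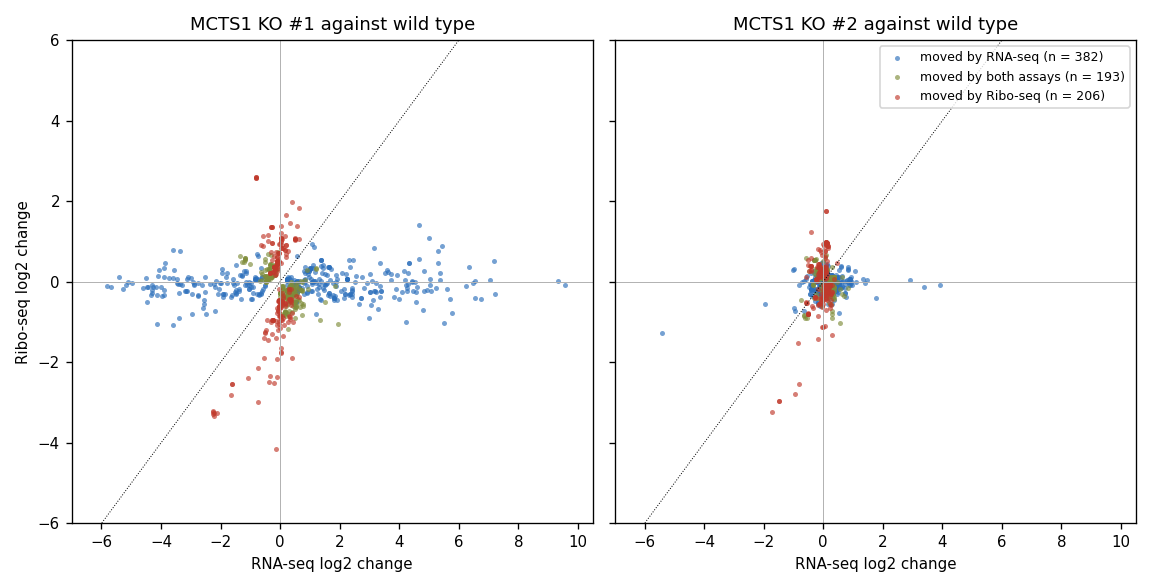
Log2 Ribo-seq change (vertical axis) against log2 RNA-seq change (horizontal axis) of the 781 transcripts called for TE, in MCTS1 KO #1 (left) and MCTS1 KO #2 (right), each against wild type; the dotted line marks equal change in both assays. In clone #1 the 382 transcripts moved by RNA-seq spread along the horizontal axis and the 206 moved by Ribo-seq along the vertical one, while in clone #2 most points lie near 0.

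Transcripts moved by Ribo-seq comprised 99 with higher and 107 with lower TE. The 99 had a median TE change of 0.59, a median Ribo-seq change of 0.65 and a median RNA-seq change of -0.07, and fell into 60 groups of shared reads, the largest with 10 transcripts. The 107 had medians of -0.60 for TE, -0.55 for Ribo-seq and 0.04 for RNA-seq, in 79 groups. Each clone was set against the same wild type libraries, and the changes were larger in clone #1. Among the higher ones the median TE change was 0.62 in clone #1 and 0.39 in clone #2, and among the lower ones -0.79 in clone #1 and -0.32 in clone #2. Only 13 of the 99 and 37 of the 107 were called in all 12 fits with 1 library left out, with a low of 20 of the 99 without wild type RNA-seq replicate 1.

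Setting each group beside all other Ribo-seq libraries describes which one stood apart. For 61 of the 99 transcripts with higher TE, both clone #1 Ribo-seq libraries lay above all 10 other Ribo-seq libraries, which include those with control or DENR siRNA, and for 22 of the 99 both clone #2 libraries did. Over all 85162 transcripts this held for 9.34% in clone #1 and 4.31% in clone #2. For 64 of the 107 with lower TE both clone #1 libraries lay below all 10 others, and for 11 both clone #2 libraries did, against 7.54% of all 85162 for clone #1 and 5.31% for clone #2. Wild type stood apart too: for 42 of the 107 both wild type Ribo-seq libraries lay above all 10 others, which held for 1.74% of all 85162. These transcripts were called with the same clone and wild type libraries. Some of the 99, named transcripts among them, also reached the minimum mean count in Ribo-seq only through the deeper clone #1 libraries. For these, footprints in clone #1 were a condition of being described, and their number was not determined. Larger shares than among all 85162 thus follow in part from the selection and are description only.

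ENST00000230173.10, which shares its reads with 3 other called transcripts, had the largest rise in TE among the named transcripts moved by Ribo-seq. Its Ribo-seq level was 5.90 and 7.69 CPM (counts scaled to the size of the library) in clone #1 and 1.62 and 1.03 CPM in clone #2, against 1.05 and 1.16 CPM in wild type. Its RNA-seq level was 0.476 and 0.508 CPM in clone #1 and 0.866 and 0.927 CPM in clone #2, against 0.761 and 0.931 CPM in wild type. Clone #1 lay apart in both assays, while clone #2 overlapped wild type in both. The mean TE change was 1.77 ± 0.27 (SE, adjusted p 7.7e-05), which came from 3.39 ± 0.27 in clone #1 (adjusted p 4.8e-12) beside 0.16 ± 0.34 in clone #2 (adjusted p 0.95).

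ENST00000483079.6 came next among the rises, and its counts equal those of a second identifier that adds the suffix PAR_Y. Its Ribo-seq level was 0.757 and 0.657 CPM in clone #1 and 1.20 and 1.31 CPM in clone #2, against 0.413 and 0.343 CPM in wild type. Its RNA-seq level was 1.42 and 1.20 CPM in clone #1 and 1.74 and 1.68 CPM in clone #2, against 1.52 and 1.64 CPM in wild type. All 4 KO libraries exceeded both wild type libraries in Ribo-seq. In counts, clone #1 had 129 and 85 Ribo-seq reads and clone #2 had 31 and 33. The transcript reached the minimum mean count in Ribo-seq only through the deeper clone #1 libraries. The TE change was 1.43 ± 0.31 (adjusted p 0.012), with 1.21 ± 0.33 in clone #1 (adjusted p 0.02) and 1.66 ± 0.36 in clone #2 (adjusted p 0.047). The wild type Ribo-seq counts behind it were 9 and 16 reads, and the call was lost without wild type RNA-seq replicate 2 (adjusted p 0.074) and without wild type Ribo-seq replicate 2 (adjusted p 0.11).

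ENST00000511391.1 had the largest fall in TE moved by Ribo-seq. In Ribo-seq it had 0.117 and 0.155 CPM in clone #1 and 1.74 and 2.77 CPM in clone #2, against 3.07 and 1.95 CPM in wild type. Its RNA-seq level was 0.496 CPM in both libraries of clone #1 and 0.627 and 0.569 CPM in clone #2, against 0.369 and 0.722 CPM in wild type. Footprints were low in clone #1, while clone #2 overlapped wild type. The mean TE change of -2.10 ± 0.34 (adjusted p 0.00026) combined -3.99 ± 0.40 in clone #1 with -0.20 ± 0.39 in clone #2 (adjusted p 0.94).

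ENST00000496931.1 followed with a TE change of -1.95 ± 0.38 (adjusted p 0.0091). Its Ribo-seq counts were 68 and 48 in clone #1 and 25 and 16 in clone #2, against 18 and 126 in wild type. Their mean of 50.2 was just inside the limit, and it was under the limit without wild type Ribo-seq replicate 2. In Ribo-seq it had 0.399 and 0.371 CPM in clone #1 and 0.964 and 0.634 CPM in clone #2, against 0.825 and 2.70 CPM in wild type. Its RNA-seq level was between 0.546 and 0.798 CPM in the KO libraries, against 0.611 and 0.596 CPM in wild type. The size rested on wild type Ribo-seq replicate 2, the highest library, without which the change was -0.68 (adjusted p 0.47). The call was also lost without each wild type RNA-seq library and without clone #2 Ribo-seq replicate 2, with adjusted p between 3e-08 and 0.47 over the 12 fits.

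Transcripts moved by RNA-seq were the largest class, and their changes lay mostly in clone #1. The 142 with higher TE had a median RNA-seq change of -1.14 and a median Ribo-seq change of -0.07, and the 240 with lower TE had medians of 0.93 for RNA-seq and -0.06 for Ribo-seq. In clone #1 the median RNA-seq changes were -2.01 and 1.74 for the higher and lower TE calls. In clone #2 they were -0.05 and 0.22. The TE change was larger in size in clone #1 for 137 of the 142 and 220 of the 240. The direct test of clone #1 against clone #2 called 125 of the 142 and 204 of the 240, against 5816 of all 85162. The class was chosen with the same clone #1 libraries, so larger shares here follow in part from the selection.

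Among all RNA-seq libraries clone #1 stood apart for most of this class. Both of its RNA-seq libraries lay below all 10 others for 123 of the 142 transcripts with higher TE, against 13.9% of all 85162. They lay above all 10 others for 198 of the 240 with lower TE, against 11.3% of all 85162. Clone #2 RNA-seq libraries lay above all others for 4.58% of the 240, against 6.02% of all 85162. Wild type RNA-seq libraries lay above all 10 others for 29 of the 142, against 4.33% of all 85162, and below them for 79 of the 240, against 5.44%. The calls and the class rest on these same clone and wild type libraries. Larger shares than among all 85162 thus follow in part from the selection and are description only. Of the 240, 76 were members only through clone #1 RNA-seq. In all 12 fits with 1 library left out, 77 of the 142 and 87 of the 240 were called.

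The named transcripts of this class show large RNA differences beside smaller footprint differences; they were picked by size after the values were seen. ENST00000469948.1 had 0.207 and 0.120 CPM of RNA in clone #1 and 5.91 and 5.13 CPM in clone #2, against 6.87 and 6.11 CPM in wild type. Footprints were at 5.92 and 5.97 CPM in clone #1 and 6.28 and 6.62 CPM in clone #2, against 5.73 and 6.68 CPM in wild type. The RNA of clone #1 was thus far below that of the other 4 libraries, while its footprint levels lay within the range of wild type. TE changed by 5.10 ± 0.19 in clone #1 (adjusted p 2.9e-22) with 0.26 ± 0.17 in clone #2 (adjusted p 0.78).

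ENST00000511479.1 also had low RNA in clone #1. It had 0.154 and 0.179 CPM of RNA in clone #1 and 4.49 and 5.13 CPM in clone #2, against 6.40 and 6.34 CPM in wild type. Footprints were at 30.9 and 31.6 CPM in clone #1 and 30.9 and 31.8 CPM in clone #2, against 39.1 and 32.7 CPM in wild type. All 4 KO libraries lay below both wild type libraries in each assay, and RNA was called lower in clone #2 as well (-0.40 ± 0.09, adjusted p 0.0017). Its TE change was 5.10 ± 0.16 in clone #1 (adjusted p 5.3e-25) and 0.22 ± 0.12 in clone #2 (adjusted p 0.71).

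The opposite form was a transcript with footprints everywhere and RNA reads almost only in clone #1. ENST00000482972.1 had 268 and 112 RNA-seq counts in clone #1 and 1 and 2 in clone #2, against 0 and 0 in wild type. ENST00000493817.2 had 305 and 139 RNA-seq counts in clone #1 and 1 and 1 in clone #2, against 0 and 0 in wild type. Both reached the minimum mean count of 50 in RNA-seq only through clone #1, so high RNA there was a condition of their being described. With 3 counts over both wild type libraries taken as the limit that a count of 0 allows, RNA in clone #1 was at least 45.7-fold and at least 53.3-fold higher. Ribo-seq levels did not follow. ENST00000482972.1 had 55.0 and 50.4 CPM in clone #1 and 50.5 and 47.2 CPM in clone #2, against 54.0 and 49.7 CPM in wild type. ENST00000493817.2 had 35.7 CPM in both libraries of clone #1 and 34.9 and 33.4 CPM in clone #2, against 41.5 and 34.3 CPM in wild type. TE was called lower for ENST00000482972.1 (adjusted p 0.0055), but not without either wild type RNA-seq library or without clone #2 RNA-seq replicate 2 (adjusted p up to 0.14). TE was called lower for ENST00000493817.2 too (adjusted p 0.026), but not without either wild type RNA-seq library or without any 1 of the 4 clone #2 libraries (adjusted p up to 0.17). These 2 were the ones among the 240 that had no RNA-seq count in wild type.

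**Figure D2:**
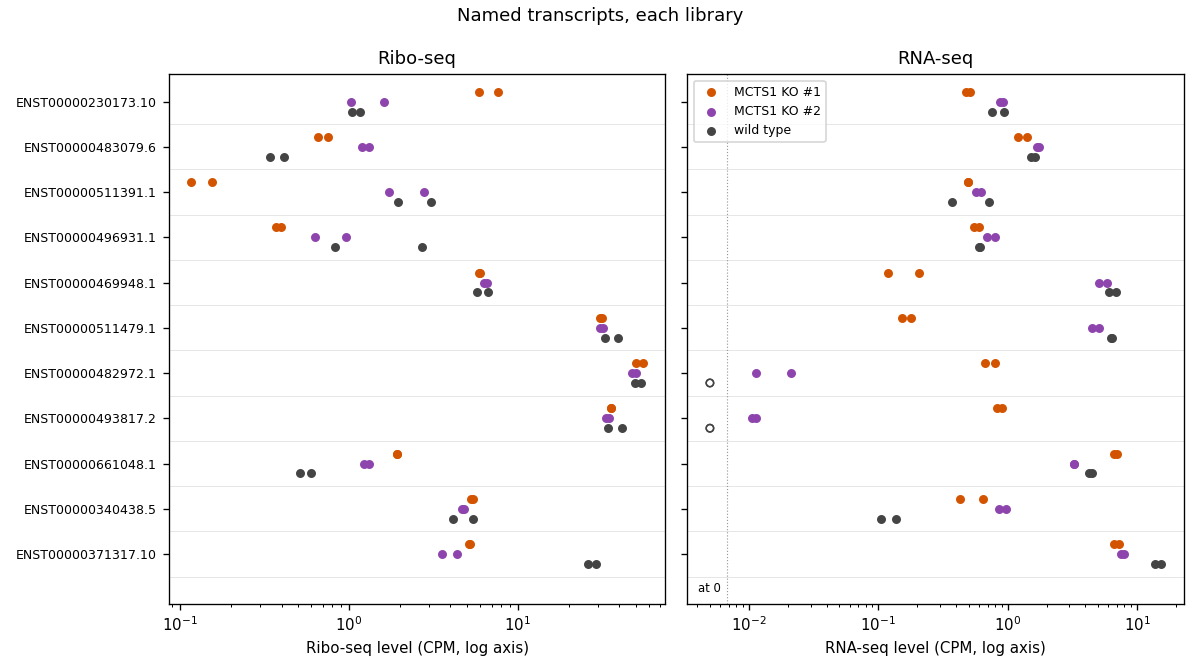
Ribo-seq (left) and RNA-seq (right) levels in CPM on log axes of the 11 named transcripts, 1 point per library, with MCTS1 KO #1 above MCTS1 KO #2 and wild type below; open circles at the left edge mark libraries with no count. ENST00000469948.1 and ENST00000511479.1 separate clone #1 in RNA-seq only, and ENST00000371317.10 separates both clones from wild type in Ribo-seq and RNA-seq.

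Transcripts moved by both assays had small changes in opposite directions in the 2 assays. The 71 with higher TE had a median Ribo-seq change of 0.20 and a median RNA-seq change of -0.20, and the 122 with lower TE had medians of -0.26 and 0.26. The median TE change of the 122 was -0.73 in clone #1 and -0.29 in clone #2. These were the more highly counted transcripts, with median mean counts of 2860 in RNA-seq and 1750 in Ribo-seq, against 592 and 267 over all 85162. Of the 71 with higher TE, 1 was called in all 12 fits with 1 library left out, and of the 122 with lower TE, 36 were.

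Each clone was also set against wild type alone. Clone #1 had 2422 transcripts with higher and 2510 with lower TE, where the background was 2.49% and 2.91% of all tested. Clone #2 had 17 with higher and 94 with lower TE, where the background was 0.0285% and 0.0919%. Clone #1 minus clone #2, which uses no wild type library, gave 2951 higher and 2865 lower, where the background was 2.97% and 3.3%. TE thus differed between the 2 KO clones for 5816 transcripts, more than were called for either clone against wild type. The clone #2 count was the least stable, between 8 (without clone #2 Ribo-seq replicate 2) and 2944 (without wild type Ribo-seq replicate 2). It was 14 to 38 without each of the other clone #2 Ribo-seq and RNA-seq libraries, 13 and 22 without each wild type RNA-seq library, and 303 without wild type Ribo-seq replicate 1. Clone #1 had 7228 and 7555 calls without each wild type Ribo-seq library, 2893 and 2390 without each wild type RNA-seq library, and 2891 without its own RNA-seq replicate 2. The number called between the clones was 2686 to 3032 without each clone #2 library, 3436 without clone #1 RNA-seq replicate 2, and 9997 and 9991 without each wild type Ribo-seq library.

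Since both clones share the wild type libraries, the clone not used for a call was set against control siRNA libraries instead, which was added with the data in view. For the 2422 transcripts called higher in clone #1, the median TE change of clone #2 against control siRNA was 0.04, and 53.8% were above 0 against 49.9% of all 85162. For the 2510 called lower, the median was 0.13, and 36.2% were below 0 against 50.1%. The direction in clone #2 depended on the control for these 2510, since their median in clone #2 was -0.11 against the shared wild type libraries. Of the 94 called lower in clone #2, 22.3% were below 0 in clone #1 against control siRNA, where 48.2% of all 85162 were.

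35 transcripts were called in each clone alone with 1 direction, 9 higher and 26 lower. A further 17 were higher in clone #1 and lower in clone #2, and 4 the other way round. Both comparisons use the same wild type libraries, so these numbers are given only to choose transcripts for description. All 35 were among the 781, and they fell into 27 groups of shared reads, 6 higher and 21 lower. They were spread over the classes, with 12 moved by Ribo-seq, 12 by RNA-seq and 11 by both assays. The direct test between the clones called 10 of the 35, against 5816 of all 85162. Their number ran between 8 (without clone #2 Ribo-seq replicate 2) and 1420 (without wild type Ribo-seq replicate 2). It was 9 and 17 without each wild type RNA-seq library, 13 and 15 without each clone #2 RNA-seq library, and 77 without wild type Ribo-seq replicate 1. In all 12 such fits 6 of the 35 were called in each clone.

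5 of these 6 were lower in Ribo-seq and, by less, in RNA-seq in both clones. They cannot be taken as independent measurements, since 2 of them had nearly equal levels in every library and another nearly matched these in wild type Ribo-seq. Their Ribo-seq changes were -2.82 to -2.14 in clone #1 and -3.23 to -2.53 in clone #2, and their RNA-seq changes -1.64 to -0.73 in clone #1 and -1.72 to -0.82 in clone #2. Over these 5, Ribo-seq levels were 2.04 to 5.19 CPM in clone #1 and 1.55 to 4.36 CPM in clone #2, against 8.78 to 29.0 CPM in wild type. The same 5 had 6.90 to 20.9 CPM with siDENR #1 and 8.21 to 23.8 CPM with siDENR #2, against 8.56 to 24.1 CPM with control siRNA. Both siDENR #1 libraries lay below both control siRNA libraries for each of the 5 in Ribo-seq and in RNA-seq, by less than the KO libraries lay below wild type. Their TE changes over both DENR siRNAs were 0.07 to 0.24.

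ENST00000371317.10 is 1 of these 5 and had the largest fall in TE among them, though not the largest in Ribo-seq or RNA-seq. It was named after the values were seen. In Ribo-seq it had 5.19 and 5.16 CPM in clone #1 and 4.36 and 3.57 CPM in clone #2, against 29.0 and 26.2 CPM in wild type. Its RNA-seq level was 7.25 and 6.63 CPM in clone #1 and 7.87 and 7.53 CPM in clone #2, against 13.9 and 15.4 CPM in wild type. Neither assay showed overlap between KO and wild type. The TE change was -1.60 ± 0.11 (adjusted p 3.3e-13), from a Ribo-seq change of -2.60 ± 0.08 and an RNA-seq change of -1.0 ± 0.07, and it stayed between -1.68 and -1.52 with 1 library left out. Whether this transcript belongs to the targeted gene could not be checked here.

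TCP-seq levels did not show a fall like that in Ribo-seq. ENST00000371317.10 had 20.4 and 13.4 CPM in clone #1 and 14.9 and 21.4 CPM in clone #2, against 20.5 and 19.1 CPM in wild type, a change of -0.16 ± 0.22 (adjusted p 0.66). Of the 5 transcripts, 4 could be tested in TCP-seq, with changes of -0.16 to 1.21, and 1 was called higher.

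The sixth was ENST00000340438.5, moved by RNA-seq in both clones and also named after the values were seen. It had 0.425 and 0.651 CPM of RNA in clone #1 and 0.855 and 0.969 CPM in clone #2, against 0.138 and 0.105 CPM in wild type. Footprints were at 5.30 and 5.47 CPM in clone #1 and 4.82 and 4.68 CPM in clone #2, against 5.41 and 4.12 CPM in wild type. RNA was higher in all 4 KO libraries, while Ribo-seq levels overlapped. Its TE change was -2.36 ± 0.32 (adjusted p 9e-06). RNA-seq counts were 144 and 109 in clone #1 and 75 and 92 in clone #2, against 12 and 10 in wild type. The minimum mean count in RNA-seq was reached only through clone #1, where its RNA was higher than in wild type. The fits with 1 library left out kept the same members, so they did not vary this condition.

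Other members of the 35 were lower or higher in Ribo-seq without a call in RNA-seq for the mean of both clones. 4 transcripts with lower TE moved by Ribo-seq had RNA-seq changes of -0.09 to 0.09 in clone #1 and -0.16 to 0.30 in clone #2, with Ribo-seq changes of -1.14 to -0.72 in clone #1 and -1.41 to -0.25 in clone #2. For 2 of the 4 the RNA-seq change in clone #2 (0.30 and 0.28) was larger in size than the Ribo-seq change (-0.25 for each). ENST00000661048.1, the second largest rise after ENST00000483079.6, had Ribo-seq levels of 1.94 CPM in both libraries of clone #1 and 1.31 and 1.23 CPM in clone #2, against 0.596 and 0.515 CPM in wild type. Its RNA-seq level was 7.03 and 6.66 CPM in clone #1 and 3.27 CPM in both libraries of clone #2, against 4.51 and 4.26 CPM in wild type. Footprints were higher in both clones, while RNA was higher in clone #1 and lower in clone #2 (changes of 0.65 ± 0.09 and -0.42 ± 0.10). Its TE change was 1.42 ± 0.24 (adjusted p 0.00037). Ribo-seq counts were 331 and 251 in clone #1 and 34 and 31 in clone #2, against 13 and 24 in wild type. The minimum mean count in Ribo-seq was reached only through clone #1.

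**Figure D3:**
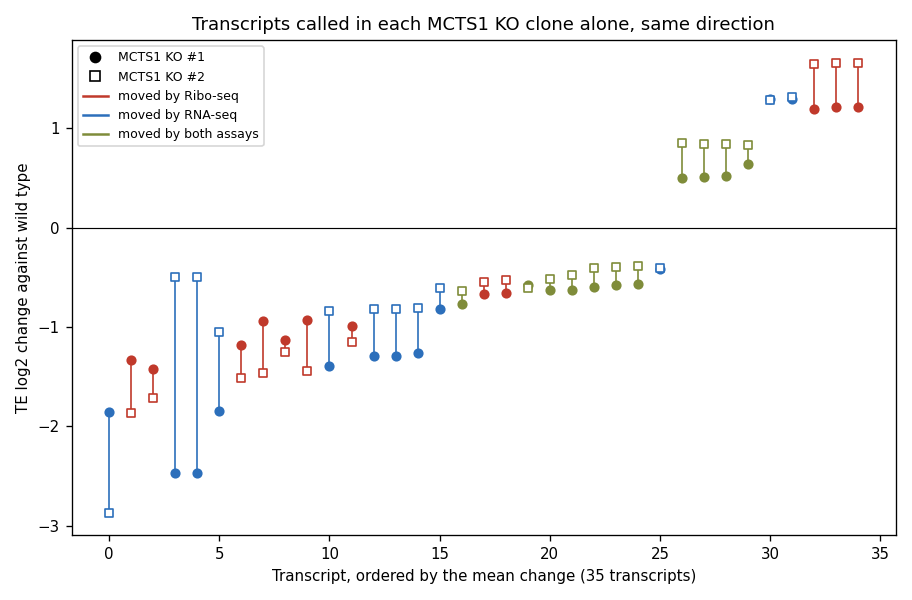
TE log2 change against wild type (vertical axis) of the 35 transcripts called in each clone alone with the same direction, ordered by their mean change (horizontal axis), with filled circles for MCTS1 KO #1, open squares for MCTS1 KO #2 and colours for the class. The 26 lower transcripts lie on the left and the 9 higher ones on the right, and overlapping transcripts that share reads give near-equal points side by side.

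Some classes of called transcripts differed from the rest in how many footprints they carry per RNA read. This was read from the 2 control siRNA libraries of each assay, which the comparison did not use, as log2 Ribo-seq CPM over RNA-seq CPM of the same transcript. The median was -1.39 for the 99 transcripts with higher TE moved by Ribo-seq and 0.10 for the 107 with lower TE. It was 1.56 for the 142 with higher TE moved by RNA-seq and 2.88 for the 240 with lower TE, against 0.01 over all 85162. For transcripts moved by both assays it was 0.25 with higher TE and 0.28 with lower TE. These medians and that of the 107 lay within the middle 50% of all 85162 (-0.65 to 0.59). Footprints exceeded RNA by more than 4-fold for 64 of the 142 and 129 of the 240, against 1.41% of all 85162. The minimum count takes part in this, since 76 of the 240 had a mean RNA-seq count under 50 over the 4 libraries of clone #2 and wild type and were members only through clone #1, against 2.19% of all 85162. Among the other 164 the median ratio was 1.20, and 58 exceeded 4-fold, against 0.972% of all transcripts that passed without clone #1. Among the 142 with higher TE, 139 passed without clone #1, with a median of 1.57. This check was added with the data in view and covers only the RNA-seq limit. No such check was made for the Ribo-seq limit in the classes moved by Ribo-seq. Among the 99, ENST00000230173.10, ENST00000483079.6 and ENST00000661048.1 reached that limit only through clone #1. How far the limit shapes the ratio of the 99 was not tested.

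Across quartiles of that ratio the share called for TE was 0.977%, 0.371%, 0.521% and 1.80% from the lowest to the highest. The lowest quartile held 111 calls moved by Ribo-seq and 32 moved by RNA-seq. The highest quartile held 52 moved by Ribo-seq and 275 moved by RNA-seq. Calls were thus most frequent at the ends, with a different assay prevailing at each end. This split was added with the data in view, and its part in the calls was not tested. It covers all members, also those that reached a minimum count only through clone #1.

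**Figure D4:**
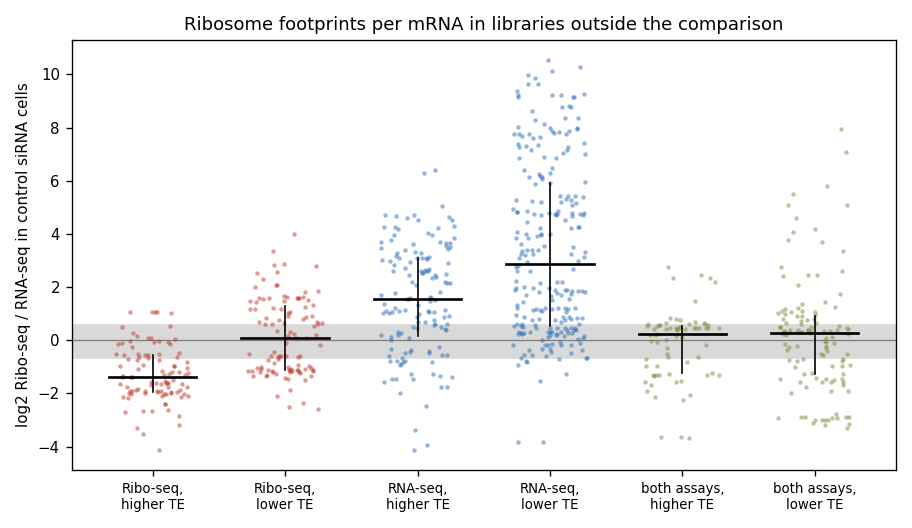
Log2 of Ribo-seq over RNA-seq level in control siRNA cells (vertical axis) for each called transcript, by the assay that moved its TE and the direction (horizontal axis); bars mark the median and the middle 50% of each class, and the grey band the middle 50% of all 85162 transcripts. Transcripts moved by RNA-seq reach the highest ratios, with a median of 2.88 for lower TE, and those with higher TE moved by Ribo-seq lie lowest, with a median of -1.39.

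DENR siRNA was compared with control siRNA in libraries that the MCTS1 comparison does not use. Over the 84871 members tested there, 219 had higher and 100 lower TE (0.258% and 0.118%), where the background was 0.244% and 0.125% of all tested. None of the 312 transcripts with higher TE in the MCTS1 KO was called for TE after DENR siRNA. At the shares over all members, few or none of 312 would be called, so this absence sets them apart from no other transcripts. Among transcripts with lower TE in the MCTS1 KO, 20 had higher TE after DENR siRNA, the opposite direction, and they fell into 11 groups of shared reads, the largest with 8 transcripts. These 20 were 9 of the 107 tested that were moved by Ribo-seq, 1 of 212 by RNA-seq and 10 of 122 by both assays. Their median TE change was -0.55 in clone #1 and -0.31 in clone #2. After DENR siRNA it was -0.06 with siDENR #1 and 0.71 with siDENR #2, and only 7 of the 20 were above 0 with both siRNAs. Lower TE in both comparisons was found for 11 of the 122 tested that were moved by both assays and 3 of the 212 moved by RNA-seq. The 11 fell into 7 groups of shared reads and the 3 into 2. Both shares were above the 0.118% of all members.

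TCP-seq gave a further readout of the KO clones, tested for 40813 of the 85162 transcripts. It called 3531 higher and 3115 lower, where the background was 8.5% and 8.79% of all tested. Of the 77 tested transcripts with higher TE moved by Ribo-seq, 22 were higher and 5 lower in TCP-seq (28.6% and 6.49%, against 8.65% and 7.63% of the members), and the 22 fell into 16 groups of shared reads. The median TCP-seq change of the 77 was 0.31, against 0.02 over the 40813. Of the 70 tested with lower TE moved by Ribo-seq, 11 were higher and 8 lower. Among those moved by RNA-seq, 35 of 171 with lower TE were higher and 5 lower in TCP-seq. Higher TCP-seq calls made up 20.5% of the tested transcripts with lower TE moved by RNA-seq and 15.7% of those with lower TE moved by Ribo-seq, against the same 8.65%. The 35 fell into 23 of the 132 groups of shared reads tested there, and the 11 into 5 of 43. Of the tested transcripts with higher TE moved by RNA-seq, 9.76% were higher and 7.32% lower in TCP-seq. Among those moved by both assays, 20 of 64 with higher TE were higher and 2 lower in TCP-seq. The 20 fell into 14 groups of shared reads. Of the 91 tested with lower TE moved by both assays, 17 were higher and 10 lower. Higher TCP-seq calls made up 31.2% of the 64 and 18.7% of the 91. A share above 8.65% was thus not particular to transcripts moved by Ribo-seq. The TCP-seq libraries were other libraries of the same clones, and wild type replicates 3 and 4 served as their control, chosen by the run of library names.

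**Figure D5:**
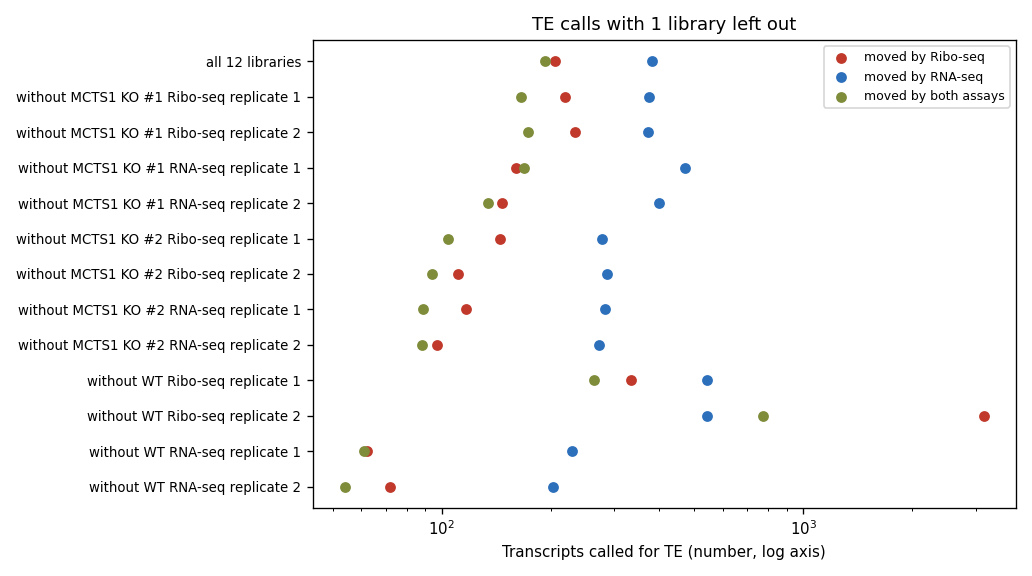
Number of transcripts called for TE (horizontal log axis) by class with all 12 libraries and with each library left out (vertical axis). Without wild type Ribo-seq replicate 2 the transcripts moved by Ribo-seq numbered 3154 against 206 with all libraries, while those moved by RNA-seq stayed between 203 and 542 over the 12 fits.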

How the data were processed

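The authors deposited whole-number counts per transcript, in 1 table over the libraries. The submitters' processing notes name the tools cutadapt, STAR, Subread and featureCounts, and the builds hg38 and GRCh38.p13. The sources used here do not give how strand or reads on overlapping transcripts were treated. Groups came from the labels. The counts of the 12 Ribo-seq and RNA-seq libraries were tested with edgeR 4.0.16 in R 4.3.3 (TMM factors, filterByExpr with a minimum count of 10 in each assay, robust quasi-likelihood test, 1 coefficient per group, Benjamini-Hochberg adjusted p under 0.05). A contrast was the mean of both clones minus wild type, Ribo-seq minus RNA-seq, so its p-value leaves out the spread between clones. A standard error is the log2 change divided by the root of F. CPM values use the TMM factors. Control siRNA ratios were log2 CPM with a prior count of 2. Groups of shared reads were formed where replicate deviations correlated above 0.95. The test was tried on simulated counts. Alternatives, DESeq2 1.42.0 among them, are given in the closing section.

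The members, classes and tests were chosen with earlier results of these data known. Named transcripts are the 2 largest rises and falls moved by Ribo-seq, with the same sign in both clones; the same number moved by RNA-seq and called in each clone alone were added after their values were seen. The plan held gene lists and markers by symbol, which could not be applied to transcript identifiers. Replicate numbers were not used to pair the assays in the main fit. Deviations of same-numbered Ribo-seq and RNA-seq libraries correlated at 0.09 in clone #1, 0.01 in clone #2 and -0.07 in wild type. These low values do not settle whether such libraries share a culture, which no label states.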

Additional observations from a re-analysis of the deposited data

Results flagged for a closer look

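The TE difference between clone #1 and clone #2 was called for 5816 transcripts, which makes the contrast between 2 lines of the same knockout larger in number than that of the clones' mean against wild type. Among the named transcripts the direct test between the clones (edgeR, adjusted p under 0.05) marked 8, given as clone #1 minus clone #2 on the log2 scale. Clone #1 had the higher TE for ENST00000230173.10 (3.23 ± 0.27), ENST00000469948.1 (4.84 ± 0.19) and ENST00000511479.1 (4.88 ± 0.16). Clone #1 had the lower TE for ENST00000511391.1 (-3.79 ± 0.41), ENST00000482972.1 (-5.30) and ENST00000493817.2 (-6.11). The fitted values of the last 2 rest on 1 or 2 RNA-seq counts in each clone #2 library. Smaller differences were found for 2 transcripts that were lower in both clones, ENST00000340438.5 (1.02 ± 0.23) and ENST00000371317.10 (0.53 ± 0.15), where the fall was larger in clone #2.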

How the results depend on the processing

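All named transcripts kept their direction under every alternative run, and ENST00000340438.5, ENST00000371317.10 and ENST00000661048.1 were called under every one that gave a value. With 1 library left out, higher TE calls numbered 115 to 2074, lower 209 to 2394, all 329 to 4468, those moved by Ribo-seq 62 to 3154, by RNA-seq 203 to 542 and by both assays 54 to 773. Calls in clone #1 alone numbered 2390 to 7555, in clone #2 alone 8 to 2944, in each clone with the same direction 8 to 1420, and between clones 2686 to 9997. RNA-seq calls numbered 7126 to 23319 and Ribo-seq calls 8282 to 15428. Clone #1 alone gave 2422 higher, 2510 lower and 4932 in all (2035 moved by RNA-seq, 1804 by Ribo-seq, 1093 by both assays). Clone #2 alone gave 17, 94 and 111 (66, 15 and 30). With no filter on low counts, 746 higher and 1336 in all were called, 513 moved by Ribo-seq, 7722 in clone #1, 402 in clone #2, 110 in each clone with the same direction and 10766 between clones. Calls in clone #2 alone were 226 by DESeq2 and 67 with library totals. Sorting by calls in 1 assay left 101 moved by both assays. DESeq2 gave 357 higher and 507 lower, and library totals 351 and 407. With a replicate block within genotype, RNA-seq calls numbered 7923 and Ribo-seq calls 6538, and TE calls 706; with a replicate block over all libraries TE calls numbered 823. The causes were not tested.

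Depth limits the rarer footprints: named transcripts had as few as 9 Ribo-seq counts in a wild type library. Precision for each group rests on 2 libraries per assay.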
